A study of Homo sapiens with 8 samples.

Results

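The genes described here are 31 long synaptic and neuronal adhesion genes, given as a list of names and found by symbol among 19821 protein-coding genes of chromosomes 1 to 22 and X. Their bodies in GRCh38 ran from 48.0 kb for SYN1 to 2.30 Mb for CNTNAP2, with a median of 898 kb. Of the 31 genes, 29 were at least 100 kb long and 21 at least 500 kb. They encode glutamate receptor subunits, vesicle proteins, adhesion proteins of the synaptic cleft, postsynaptic scaffolds and surface proteins of axons and dendrites.

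The cells were neural progenitors derived from the established human embryonic stem cell line H9. While still stem cells they had been infected with a lentivirus and selected with puromycin. The sh1 and sh4 cells carried 1 of 2 hairpins against KDM2A, and the NC cells carried the control lentivirus. H3K36me2 was immunoprecipitated from sh1, sh4 and NC cells, and KDM2A from NC cells. Each of these 4 groups held 1 library, so replicate spread could not be measured and groups were not tested against each other. Intervals below are exact 95% intervals that cover counting error only. The lists hold no expression values, so neither the progenitor identity nor the knockdown of KDM2A was checked here. In bulk chromatin, a mark in fewer cells and a weaker mark in each cell cannot be told apart.

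H3K36me2 is dimethylation of lysine 36 on histone H3, a mark of broad stretches within and between genes. KDM2A is a demethylase that removes it and is recruited to unmethylated CpG-rich DNA by a CXXC zinc finger. Many genes of neuronal adhesion are very long because of large introns, so most of their bodies is intronic sequence far from any promoter.

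In the 31 bodies, H3K36me2 regions covered 3.23% of the length in sh1, 3.86% in sh4 and 3.24% in NC. These shares came from 215 regions in sh1, 243 in sh4 and 200 in NC, which covered 957 kb, 1141 kb and 959 kb of 29.6 Mb. The sh1 covered length was 0.998 times that of NC (interval 0.819 to 1.22), and the sh4 covered length was 1.19 times that of NC (0.983 to 1.44), with both intervals resting on numbers of regions. Both intervals included 1. With only regions above the NC median fold the sh4 ratio was 1.42 (1.12 to 1.81), and by number of regions 1.22 (1.00 to 1.47), so for sh4 the interval included or left out 1 depending on the regions counted. Over whole lists the median fold was 1.65 in sh1, 1.65 in sh4 and 1.59 in NC. The fold limit therefore kept a larger share of the hairpin lists than of the NC list, also outside these genes. DLG2 alone held 227.4 kb in sh4 and 105.2 kb in NC. Without the 5 longest members, DLG2 among them, the sh4 ratio was 1.12 (0.893 to 1.39). These intervals treat regions as independent, although regions of 1 gene share their source. The sh1 and sh4 ratios share the NC library.

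Whole lists held 19500 regions over 94.3 Mb in sh1, 21493 over 112.1 Mb in sh4 and 19691 over 101.8 Mb in NC, and the genes took 1.02%, 1.02% and 0.942% of those lengths. Input depth within regions was 23.4 reads per kb in sh1, 22.7 in sh4 and 23.9 in NC over whole lists. Within the 31 genes it was 21.6 reads per kb in sh1, 20.7 in sh4 and 22.2 in NC. The part of this lower input in the results was not tested.

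Set beside other genes of similar length, the pooled coverage of these genes was lower in each library, with no test of the difference. The 21 members of at least 500 kb were covered over 3.11% of their bodies in sh1, 3.89% in sh4 and 3.11% in NC, while 293 other genes of at least 500 kb were covered over 4.54%, 5.40% and 4.35%. Median shares per gene were 2.57%, 2.77% and 2.65% in the members and 3.39%, 3.99% and 3.98% in the others. At least 1 region was found in 20, 21 and 21 of the 21 members. Among all genes of at least 500 kb, 86.9% had a region in sh1, 84.7% in sh4 and 92% in NC. In the other 293 genes the sh4 to NC ratio was 1.24 (1.17 to 1.32), beside 1.25 (1.02 to 1.53) in the 21 members. The members' interval is wide and contains the ratio of the other genes, and the difference between the ratios was not tested.

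Of all 31 genes, 26 held a region in sh1, 27 in sh4 and 27 in NC. In all genes of at least 100 kb the shares with a region were 59.1%, 57.5% and 66.2%, a set that is shorter on the whole than the members. Over all protein-coding genes they were 16.2%, 15.4% and 20%. A region stood in all 3 libraries in 25 genes and in no library in 3 genes, SYN1, SNAP25 and NRXN2, which are also the 3 shortest. Regions in the genes had median widths of 4.0 kb in sh1, 4.4 kb in sh4 and 4.2 kb in NC. Their median fold over input, the authors' own value, was 1.67 in sh1, 1.68 in sh4 and 1.65 in NC, on median counts of 142, 148 and 151 immunoprecipitate reads.

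**Figure D1:**
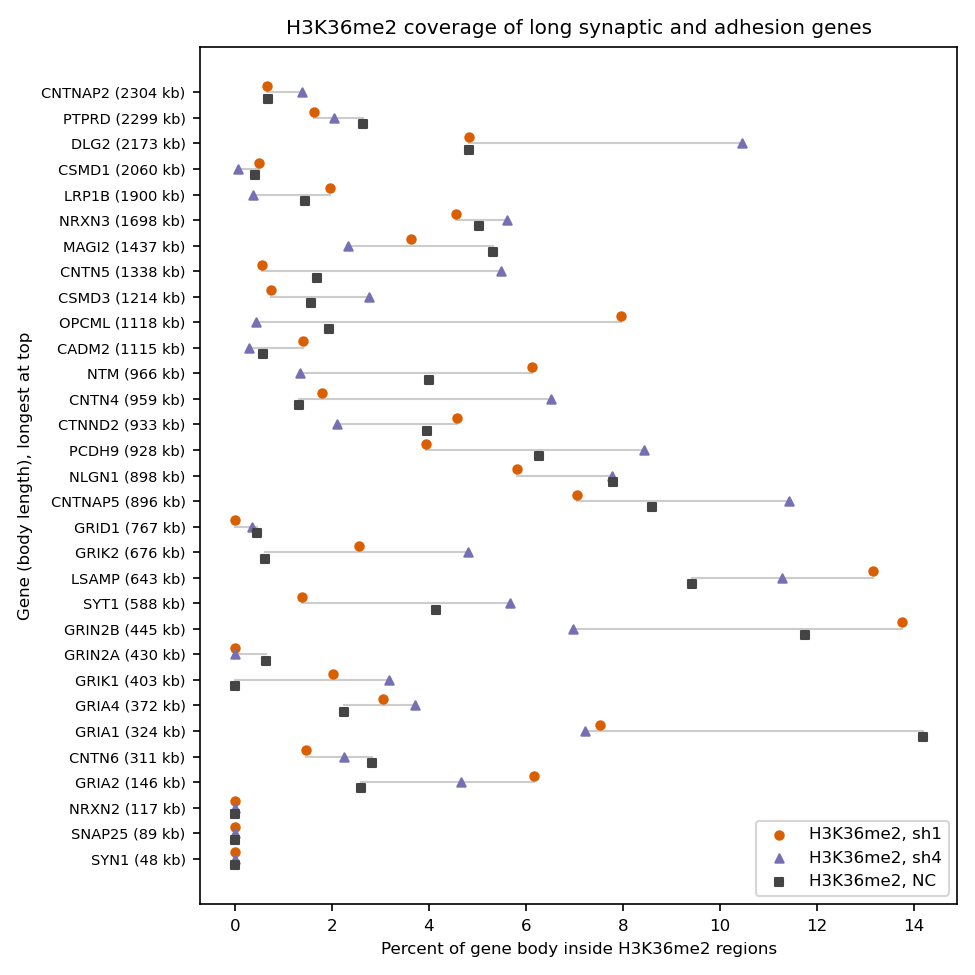
Percent of each gene body inside H3K36me2 regions (horizontal axis) for the 31 genes, longest at the top, with the body length in kb beside each name. Circles are sh1, triangles sh4 and squares NC, 1 library each, drawn at slightly different heights, and the line joins the lowest and highest library. SYN1, SNAP25 and NRXN2 sit at 0 in all libraries, and OPCML, CNTN5 and DLG2 show wide gaps between libraries.

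Glutamate receptor genes held the highest coverage of the 31 genes in sh1 (GRIN2B) and NC (GRIA1), and among the lowest in all 3 libraries (GRIN2A and GRID1). In sh4 the highest was the adhesion gene CNTNAP5. GRIN2B, an NMDA receptor subunit of developing neurons (chr12:13537337-13982134), was covered over 13.8% in sh1, 6.98% in sh4 and 11.8% in NC. GRIA1, an AMPA receptor subunit (chr5:153489615-153813869), was covered over 7.52% in sh1, 7.22% in sh4 and 14.2% in NC. The widest region of any member in sh1 and the widest in NC both lay in GRIN2B. The sh1 region, chr12:13910201-13927600, was 17.4 kb wide with 619 immunoprecipitate and 420 input reads, a fold of 1.46 (1.29 to 1.65). The NC region, chr12:13960401-13978600, was 18.2 kb wide with 638 and 431 reads and the same fold of 1.46 (1.29 to 1.65). The 2 regions did not overlap, since the sh1 region lay further into the gene.

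The other AMPA and kainate receptor genes were covered less. GRIA2, whose subunit limits calcium entry through AMPA receptors (chr4:157220120-157366075), was covered over 6.17% in sh1, 4.66% in sh4 and 2.60% in NC. GRIA4, a further AMPA subunit (chr11:105609994-105982090), was covered over 3.06% in sh1, 3.71% in sh4 and 2.26% in NC. In both genes NC was the lowest of the 3 libraries, on 1 and 2 regions. The kainate receptor gene GRIK2 (chr6:101393708-102070083) held 4 regions over 2.57% in sh1, 8 over 4.82% in sh4 and 1 over 0.621% in NC. GRIK1, also a kainate receptor gene (chr21:29536933-29939996), held 2 regions over 2.03% in sh1, 2 over 3.18% in sh4 and none in NC. The GRIK1 regions of sh1 and sh4 did not overlap each other: the wider ones were chr21:29544001-29549200 in sh1 and chr21:29648801-29658800 in sh4.

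GRIN2A, the NMDA subunit of more mature neurons (chr16:9753404-10182908), held no region in sh1 or sh4 and 1 in NC, chr16:10021201-10024000, with 113 immunoprecipitate and 66 input reads, a fold of 1.68 (1.23 to 2.32). GRID1, a delta receptor gene (chr10:85599552-86366795), held none in sh1, 1 over 0.365% in sh4 and 1 over 0.469% in NC. These 2 genes were nearly free of called regions in every library although they are 430 kb and 767 kb long.

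Among genes of vesicle release, SYN1 (synapsin, which tethers synaptic vesicles, chrX:47571901-47619857) and SNAP25 (a SNARE protein of vesicle fusion, chr20:10218830-10307418) held no region in any library. SYT1, the calcium sensor of fast release (chr12:78863982-79452008), was covered over 1.39% in sh1, 5.68% in sh4 and 4.15% in NC, on 2, 9 and 4 regions. The widest of these, chr12:79430601-79445000 in NC, spanned 14.4 kb near the far end of the gene at a fold of 1.35.

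Neurexins and the phosphatase PTPRD sit on the presynaptic membrane, and neuroligins are postsynaptic partners of neurexins. NRXN3 (chr14:78170373-79868291) was covered evenly across libraries, over 4.57% in sh1, 5.61% in sh4 and 5.04% in NC. NLGN1 (chr3:173395952-174294372) was covered over 5.81% in sh1, 7.77% in sh4 and 7.79% in NC. PTPRD (chr9:8314246-10613002) held 10 regions in each library, over 1.64% in sh1, 2.05% in sh4 and 2.65% in NC. The much shorter NRXN2 (chr11:64606174-64723197) held none. An NLGN1 region of sh4, chr3:173460801-173463600, had the highest fold of any member region in that library, 3.84 (2.48 to 6.16), on 101 immunoprecipitate and 26 input reads.

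The scaffold gene DLG2, of the postsynaptic MAGUK family (chr11:83455012-85628373), held the most regions of any member in every library. It had 24 regions over 105.2 kb in sh1, 41 over 227.4 kb in sh4 and 23 over 105.2 kb in NC, that is 4.84%, 10.5% and 4.84% of the body. Its sh4 coverage was thus 2.16 times that of NC, and its sh1 coverage equal to it. MAGI2, a scaffold that binds neuroligins (chr7:78017055-79453667), was covered over 3.63% in sh1, 2.34% in sh4 and 5.33% in NC. CTNND2, delta-catenin of the cadherin complex (chr5:10971836-11904446), was covered over 4.59% in sh1, 2.10% in sh4 and 3.97% in NC. In these 2 scaffold genes sh4 was the lowest library, unlike in DLG2.

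The contactins are adhesion proteins held to the membrane by a lipid anchor, and the CNTNAP proteins are their neurexin-like partners. CNTN4 (chr3:2098866-3057959) was covered over 1.79% in sh1, 6.53% in sh4 and 1.33% in NC. CNTN5 (chr11:99020949-100358885) was covered over 0.553% in sh1, 5.49% in sh4 and 1.70% in NC, on 1, 17 and 5 regions. In these 2 genes sh4 stood apart from the other libraries, above both. CNTN6 (chr3:1093024-1404217) was covered over 1.48% in sh1, 2.25% in sh4 and 2.83% in NC, on only 1, 1 and 2 regions. A short CNTN4 region of NC, chr3:2419801-2421200, had the highest member fold in that library, 3.98 (2.42 to 6.87), on 81 immunoprecipitate and 20 input reads.

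CNTNAP5 (chr2:124025287-124921219) was well covered in all libraries, over 7.05% in sh1, 11.4% in sh4 and 8.59% in NC. It held the widest sh4 region of any member, chr2:124518001-124534600, 16.6 kb wide at a fold of 1.27 (1.12 to 1.44). CNTNAP2, the longest member (chr7:146116801-148420998), was among the least covered, over 0.660% in sh1, 1.38% in sh4 and 0.686% in NC.

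LSAMP, NTM and OPCML belong to the IgLON family of neuronal surface proteins. LSAMP (chr3:115802374-116445487) was covered over 13.2% in sh1, 11.3% in sh4 and 9.42% in NC. NTM (chr11:131370615-132336822) was covered over 6.13% in sh1, 1.35% in sh4 and 4.02% in NC. OPCML (chr11:132414981-133532501), the neighbour of NTM, held 17 regions over 89.0 kb in sh1, 1 over 5.0 kb in sh4 and 5 over 21.8 kb in NC. The sh1 and sh4 libraries therefore lay on opposite sides of NC in OPCML, at 4.08 and 0.229 times its coverage. LSAMP was high in every library.

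CADM2, an immunoglobulin adhesion protein of synapses (chr3:84958989-86074429), was covered over 1.42% in sh1, 0.305% in sh4 and 0.574% in NC. PCDH9, a protocadherin (chr13:66302834-67230336), was covered over 3.95% in sh1, 8.43% in sh4 and 6.27% in NC. Of the very large membrane proteins with many extracellular repeats, CSMD1 (chr8:2935361-4994914) was covered over 0.495% in sh1, 0.070% in sh4 and 0.418% in NC. CSMD1 thus had little coverage in each library. Its relative CSMD3 (chr8:112222928-113436939) was covered over 0.758% in sh1, 2.77% in sh4 and 1.57% in NC. LRP1B, an LDL receptor relative (chr2:140231423-142131016), was covered over 1.97% in sh1, 0.368% in sh4 and 1.45% in NC, on 11, 2 and 8 regions. The highest fold of any member region in sh1 was in LRP1B, at chr2:141642801-141644400, 4.54 (2.66 to 8.19) on 78 immunoprecipitate and 17 input reads.

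A difference of at least 2-fold in coverage was used to count genes, without a test. In sh1, 5 of 31 genes were lower than NC (CSMD3, GRID1, CNTN5, SYT1 and GRIN2A), where 29.6% of all genes of at least 100 kb were lower by the same rule. Another 5 were higher in sh1 (CADM2, GRIA2, GRIK2, OPCML and GRIK1), against a background of 20.3%. In sh4, 6 were lower (LRP1B, MAGI2, CSMD1, NTM, OPCML and GRIN2A), with a background of 30.3%, and 6 were higher (CNTN4, GRIK2, CNTNAP2, DLG2, CNTN5 and GRIK1), with a background of 22.9%. Over all protein-coding genes, most of them without a region, the 4 shares in the same order were 12.1%, 7.72%, 12.4% and 7.99%. As shares of the 31 genes, all 4 counts lay below those of genes of at least 100 kb, and lower and higher genes were equal in number in each comparison. The genes of at least 100 kb are shorter on the whole than the members, and no background of matched length was counted for this rule. Apart from MAGI2 with 8 regions in sh4 and DLG2 with 23 in NC, each member named by the rule held at most 5 regions in the library with less coverage.

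Along the bodies, sh1 and NC regions were fewest near the gene starts. The start was known from RefSeq for 23 of the 31 genes, and their bodies were cut into 5 equal sections from start to far end. From section 1 to section 5 the numbers of regions were 21, 29, 34, 51 and 59 in sh1, 38, 44, 42, 47 and 58 in sh4, and 19, 36, 25, 54 and 48 in NC. Section 1, at the start, thus held 10.8% of sh1 regions (6.83 to 16.1), 16.6% of sh4 regions (12.0 to 22.1) and 10.4% of NC regions (6.40 to 15.8). Section 5, at the far end, held 30.4% in sh1 (24.0 to 37.4), 25.3% in sh4 (19.8 to 31.5) and 26.4% in NC (20.1 to 33.4). In 2735 other genes of at least 100 kb with a known start, section 1 held 18.8%, 18.1% and 18.4% of regions and section 5 held 18.5%, 19.0% and 20.3%. The intervals at the start of the members lay below the share of the other genes in sh1 and NC and included it in sh4. They treat regions as independent, although regions of 1 gene share their source. The other genes are shorter on the whole than the members, and no sections were counted for other genes of at least 500 kb. With only regions above the NC median fold, the sh1 interval was 6.87 to 19.0. The other genes were not counted with that limit. KDM2A peaks showed no such lean, with 639, 569, 555, 580 and 659 of 3002 peaks from section 1 to section 5.

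**Figure D2:**
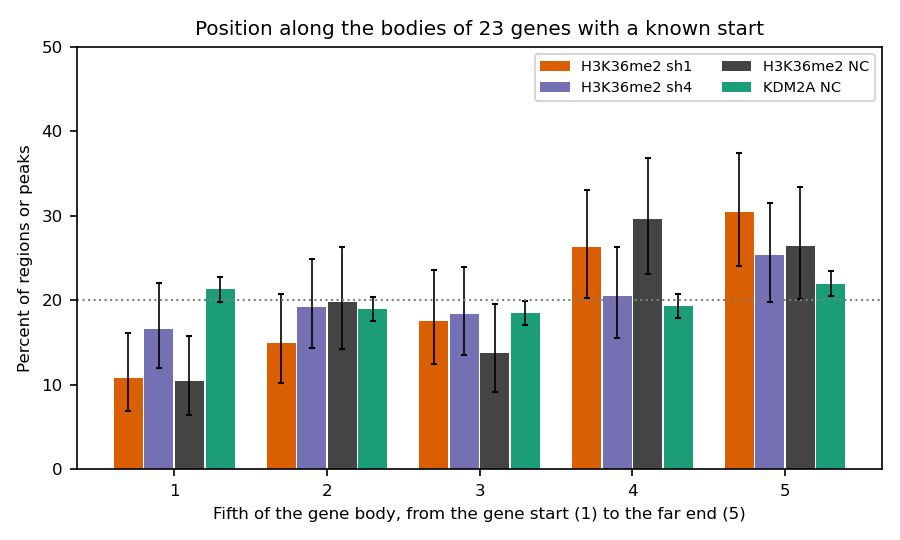
Percent of H3K36me2 regions of sh1, sh4 and NC and of KDM2A peaks of NC (vertical axis) in each of 5 equal sections of the gene body, from the gene start to the far end (horizontal axis), pooled over the 23 genes with a known start. Error bars are exact binomial 95% intervals and the dotted line marks an even spread; sh1 and NC regions are lowest in the section at the start, at 10.8% and 10.4%, while KDM2A peaks stay near the line.

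CNTNAP2, PTPRD and NRXN3 were looked at together, a choice made after the values were seen. They were not alone, since CNTN4, CNTN6, GRIA2 and GRIA4, with regions in all 3 libraries, also held none in section 1. In CNTN4 the first region midpoint lay at 55.3% of the body in sh1, 26.0% in sh4 and 33.5% in NC. In CNTNAP2 the first region midpoint lay at 64.2% of the body in sh1, 63.9% in sh4 and 71.3% in NC. PTPRD had its first at 45.9%, 67.1% and 75.2%, and NRXN3 at 33.9%, 28.4% and 26.4%. CNTNAP2, PTPRD and NRXN3 held 0 of 33 regions in section 1 in sh1, 0 of 40 in sh4 and 0 of 29 in NC. These counts follow from the choice of the genes. The other 20 genes held 13.0% in sh1 (8.26 to 19.2), 20.1% in sh4 (14.6 to 26.5) and 12.4% in NC (7.64 to 18.7). Without the 3 genes, all these intervals included the shares of the other long genes. The sh1 and NC shares of the 20 genes still lay below those of the other long genes (18.8% and 18.4%). As the 3 genes were chosen after their values were seen, this split cannot decide whether the shortfall rests on them.

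The stretch free of regions in all 3 libraries from the start of CNTNAP2 ran over 1471 kb, or 63.9% of the body. In PTPRD it ran over 1053 kb (45.8%) and in NRXN3 over 447 kb (26.3%). KDM2A peaks were present in these stretches, at 0.120 per kb in CNTNAP2 (0.103 to 0.139), 0.0940 in PTPRD (0.0764 to 0.114) and 0.268 in NRXN3 (0.223 to 0.321). The whole bodies held 0.139, 0.0979 and 0.177 per kb. In NRXN3 the free stretch was thus denser in KDM2A peaks than the whole body, beyond the counting interval, and in the other two it was not. The longest free stretch began at the start in 8 of 22 members with a known start and a region, and in 33 of 236 other genes of at least 500 kb with a known start (14.0%). Among members of that length it did so in 6 of 16. NTM was one of these, with a free stretch of 136 kb from the start at 0.383 KDM2A peaks per kb, beside 0.213 over its body. The remaining genes of the 8 were CNTN4, LSAMP, GRIA2 and GRIA4, whose free stretches were sparser than the body, within the counting intervals. Their free stretches held 0.117, 0.110, 0.0846 and 0.0803 per kb, beside 0.138, 0.120, 0.0959 and 0.116 over the bodies.

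**Figure D3:**
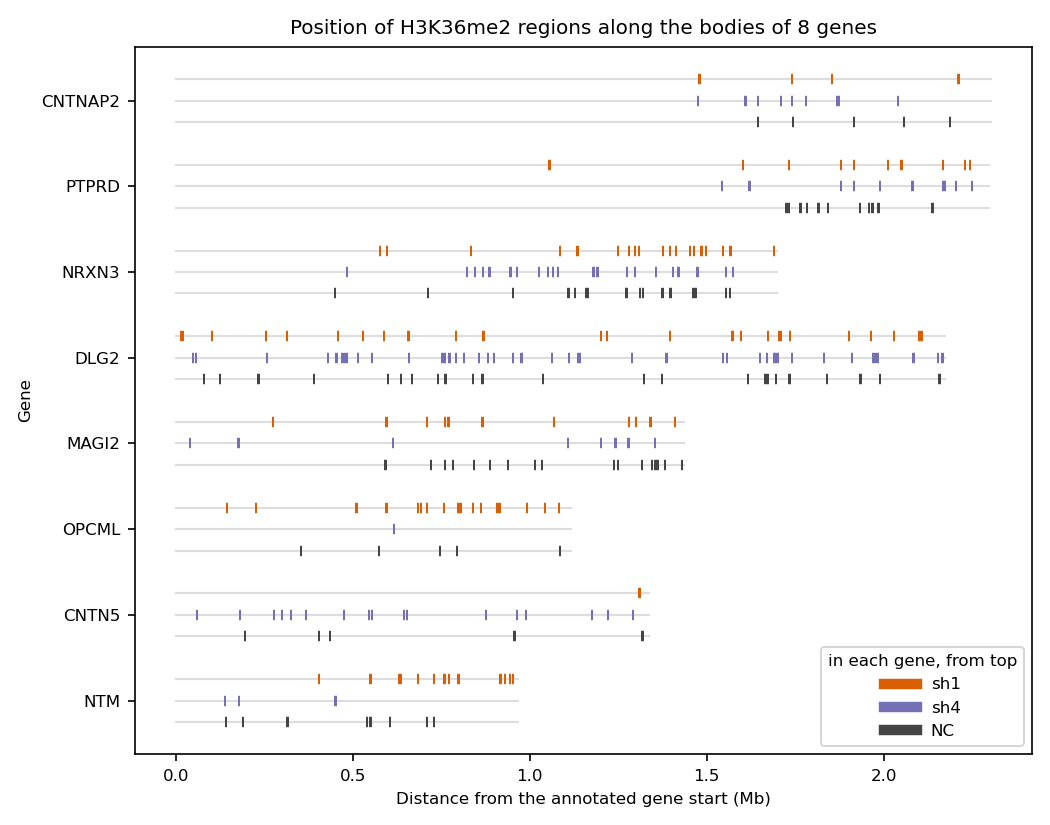
Positions of H3K36me2 regions along the bodies of 8 genes, as distance from the annotated gene start in Mb (horizontal axis), with the sh1, sh4 and NC library from top to bottom in each gene and 1 mark a region. No library has a mark in the first 1471 kb of CNTNAP2 or the first 1053 kb of PTPRD. DLG2 has marks in each of 5 equal sections of its body in all 3, and its longest stretch without a mark in any library is 149 kb. OPCML has 17 marks in sh1, 1 in sh4 and 5 in NC.

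At gene ends, no region in sh1, 2 in sh4 and 2 in NC lay within 2 kb of an end. Such windows are a small part of these long bodies. The number that an even spread would place there was not counted, so these counts do not show whether ends were avoided. In NC, chr5:153482401-153492600 reached over the start of GRIA1 with a width of 10.2 kb at a fold of 1.38. The far end of GRIN2B had a region in both sh4 and NC.

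The libraries shared little of their covered length within these genes. In base pairs, 9.93% of the sh1 length was also covered in NC (9.91% of NC), 6.07% of the sh4 length in NC (7.22% of NC) and 7.52% of the sh1 length in sh4 (6.31% of sh4). These shares were above the 3.24% of the bodies covered in NC and the 3.86% covered in sh4, with no test of the difference. Of the regions, 34 of 215 in sh1 touched an NC region, 27 of 243 in sh4 touched one, and 26 of 215 in sh1 touched an sh4 region. In other genes of at least 100 kb the shared lengths were 9.98% of sh1 with NC, 7.91% of sh4 with NC and 10.4% of sh1 with sh4, close to the members for sh1 with NC and higher for the other pairs, with no test of the difference. Since all 3 libraries come from single preparations, the agreement between 2 preparations of 1 condition is not known, and the differences between sh1, sh4 and NC cannot be told apart from those between preparations.

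Only 2 stretches were covered in all 3 libraries. In NLGN1 it was chr3:174214601-174218000, at 91.3% of the body, within regions of fold 1.95 in sh1, 1.49 in sh4 and 1.40 in NC. In DLG2 it was chr11:83955401-83957000, at 76.9% of the body, within regions of fold 1.80 in sh1, 1.55 in sh4 and 1.99 in NC. The longest stretch of any pair, 8.4 kb at chr12:13910801-13919200, was shared by sh1 and sh4 in GRIN2B. NRXN3 shared 16.4 kb between sh1 and NC in 4 stretches, of which the longest was 6.0 kb. Shared stretches were found in 18 genes. DLG2, with the most regions, shared 5.2 kb between sh1 and NC, 15.2 kb between sh4 and NC and 14.4 kb between sh1 and sh4. NLGN1 shared 11.6 kb, 7.2 kb and 11.2 kb in the same pairs, and LSAMP 9.0 kb, 3.2 kb and 11.6 kb. CNTNAP5, GRIA1, GRIN2B and NRXN3 also had a shared stretch in every pair of libraries. CADM2, CTNND2, NTM and OPCML shared stretches between sh1 and NC only, GRIK2 and SYT1 between sh4 and NC only, and CSMD3 between sh1 and sh4 only. MAGI2, PTPRD, PCDH9 and CNTNAP2 shared stretches in 2 of the 3 pairs.

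At a coarser scale the libraries were closer. Of 280 windows of 100 kb in the members, 87 held a region in no library, 74 in 1, 67 in 2 and 52 in all 3. A region of NC was found in 59.3% of windows with one in sh1 and in 26.1% of windows without, and in 59.8% of windows with one in sh4 and in 24.8% without. In the other long genes these shares were 65.3% and 37.0%, and 61.8% and 40.3%. Across the 31 genes, percent covered ranked much the same in each pair of libraries, with a Spearman correlation of 0.791 for sh1 and NC, 0.773 for sh4 and NC and 0.683 for sh1 and sh4, as a description, since genes are not replicates and the libraries may share mappability and base composition. The other genes of at least 100 kb gave 0.438, 0.348 and 0.498, over many shorter genes with no region. The libraries thus ranked the genes similarly, while most of the called length inside them was not shared. Whether unshared regions were absent or fell short of calling in the other library was not tested.

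Pooled over the bodies, KDM2A peaks were sparser in these genes than in other long genes, with no test of the difference. The deposited list is broad, with 502659 peaks at a median pileup of 8 and FDR values up to 0.869, and only 3.08% of its peaks on these chromosomes had an FDR under 0.05. The 31 bodies held 4069 peaks, or 0.137 per kb (0.133 to 0.142), while other genes of at least 100 kb held 0.164 (0.163 to 0.165), a ratio of 0.839 (0.813 to 0.866). With peaks of FDR under 0.05 the members held 84, 2.84 per Mb (2.26 to 3.51), and the other long genes 4.24 per Mb (4.10 to 4.38). Members of at least 500 kb held 0.134 per kb, and other genes of at least 500 kb 0.156. The intervals treat peaks as independent, although peaks of 1 gene share their source. Counted per gene, the lower and upper quartiles were 0.0974 and 0.194 per kb in the members. In the other genes of at least 100 kb they were 0.117 and 0.206, so the ranges overlapped widely. How deeply KDM2A was sequenced is unknown.

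SYN1 (0.271 per kb, interval 0.144 to 0.464, on 13 peaks), GRID1 (0.262) and GRIN2A (0.261) had the densest peaks, followed by NTM (0.213) and OPCML (0.210). These first 3 genes held no or at most 1 H3K36me2 region in each library, and SYN1 is the shortest member. NTM and OPCML held 12 and 17 regions in sh1. Across the 31 genes, the Spearman correlation of KDM2A peaks per kb with percent covered was -0.156 in sh1, -0.459 in sh4 and -0.242 in NC, as a description. PCDH9 (0.0647 per kb), GRIK2 (0.0680) and CSMD3 (0.0700) had the sparsest. A KDM2A peak of FDR under 0.05 stood in 24 of the 31 bodies, while 55.9% of all genes of at least 100 kb and 20% of all protein-coding genes held one. Among genes of at least 500 kb, 18 of 21 members held one and 269 of 293 others. These peaks were most numerous in CNTNAP2 (11) and NRXN3 (7), followed by CNTN4, CTNND2, CSMD1 and PTPRD with 6 each. LRP1B, CADM2, CSMD3, GRID1, NTM and OPCML had 4 each, DLG2 and GRIN2B 3, and CNTNAP5 and MAGI2 2. CNTN6, LSAMP, NLGN1, GRIA2, NRXN2, PCDH9, GRIN2A and GRIK1 had 1 each, and the remaining 7 genes had none. The strongest by fold was chr11:84784197-84784441 in DLG2 (fold 5.68, FDR 1.48e-06, pileup 17), then chr8:113156614-113156894 in CSMD3 (fold 5.44, FDR 3.80e-07). Of the 84 peaks, 6 (7.14%) overlapped an H3K36me2 region of any library, 4 in sh1, 0 in sh4 and 3 in NC, while regions of any library covered 9.55% of the bodies.

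**Figure D4:**
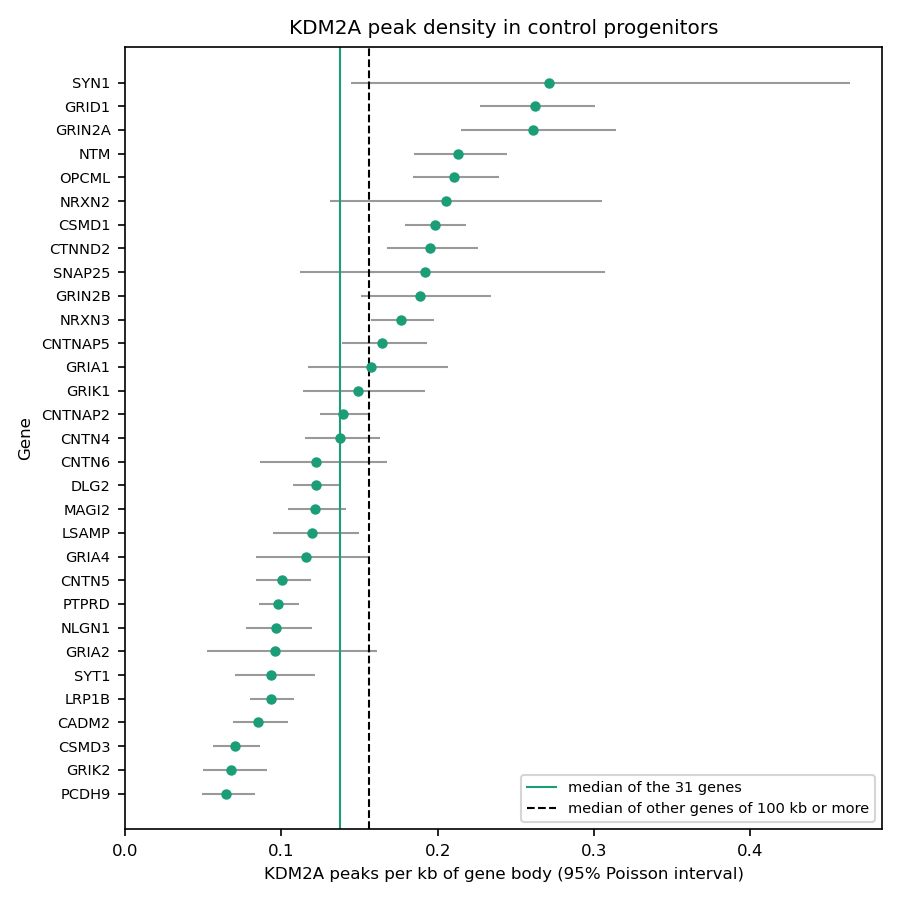
KDM2A peaks per kb of gene body in NC cells (horizontal axis) for each of the 31 genes, with exact Poisson 95% intervals of counting error. The solid line is the median of the 31 genes (0.138) and the dashed line that of other genes of at least 100 kb (0.156); SYN1, GRID1 and GRIN2A lie highest and PCDH9 lowest.

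KDM2A peaks of NC cells were denser inside than outside the H3K36me2 regions of sh1 and NC, and in sh4 the interval of the ratio included 1 when peaks were placed by midpoint. The density was 0.207 per kb inside sh1 regions and 0.135 outside (ratio 1.53, 1.32 to 1.77), 0.153 inside sh4 regions and 0.137 outside (1.11, 0.952 to 1.30), and 0.171 inside NC regions and 0.136 outside (1.25, 1.07 to 1.47). In other genes of at least 100 kb the ratios were 1.11 (1.08 to 1.14), 0.941 (0.917 to 0.966) and 1.19 (1.16 to 1.22). With the 10% of peaks of highest fold, the sh4 and NC ratios in the members turned below 1, to 0.617 (0.294 to 1.15) and 0.891 (0.457 to 1.57), and that of sh1 was 1.36 (0.798 to 2.18), so with these peaks every interval included 1. A comparison within each gene, added after the values were seen, gave ratios of 1.47 (1.27 to 1.69), 1.24 (1.07 to 1.44) and 1.28 (1.09 to 1.49), above 1 in 21 of 26, 18 of 27 and 17 of 27 genes. With any overlap in place of the midpoint the sh4 ratio was 1.17 (1.007 to 1.36), so by these 2 measures its interval left out 1.

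KDM2A peaks at gene starts were counted per start and per gene. Of 51 annotated starts of the 23 genes, 12 had a KDM2A peak within 500 bp (23.5%, 12.8 to 37.5), beside 38.4% of 22132 starts of all genes (37.8 to 39.1). Starts of 1 gene can lie close together and share a peak, and genes such as DLG2 and NTM have several annotated starts. Counted per gene, 11 of 23 members had a peak at a start, beside 6937 of 15812 genes, so the members were not lower by that count. It is not a like comparison, because the members had more annotated starts per gene at which a peak could lie. They had 51 starts in 23 genes, and all genes had 22132 in 15812. A peak covered a start of CTNND2 and of PTPRD. At CTNND2 the peak chr5:11904367-11905024 had a fold of 2.57 and an FDR of 0.333, and at PTPRD the peak chr9:10612791-10613081 had a fold of 2.42 and an FDR of 0.437, so neither was strong.

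The sequence upstream of the starts is shown because KDM2A binds unmethylated CpG sites. The 250 bases before a start held a median of 9 CG dinucleotides in the members and 16 in all genes, and every member start and 96.8% of all starts held at least 1. Below are those of CTNND2, PTPRD and CNTN4, each with a KDM2A peak at or within 500 bp of the start, and that of SYN1, which has 41 CG dinucleotides and no peak within 2 kb. They are 250 bases from RefSeq, GRCh38.p14, 5′ to 3′ on the strand of the gene, with CG dinucleotides in capitals. A CG in these letters is a description and says nothing of methylation.
CTNND2: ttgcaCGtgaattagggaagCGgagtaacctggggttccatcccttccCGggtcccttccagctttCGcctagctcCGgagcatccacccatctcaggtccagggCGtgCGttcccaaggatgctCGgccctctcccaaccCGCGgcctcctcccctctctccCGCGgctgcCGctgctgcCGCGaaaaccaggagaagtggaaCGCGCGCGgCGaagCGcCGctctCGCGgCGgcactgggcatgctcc
PTPRD: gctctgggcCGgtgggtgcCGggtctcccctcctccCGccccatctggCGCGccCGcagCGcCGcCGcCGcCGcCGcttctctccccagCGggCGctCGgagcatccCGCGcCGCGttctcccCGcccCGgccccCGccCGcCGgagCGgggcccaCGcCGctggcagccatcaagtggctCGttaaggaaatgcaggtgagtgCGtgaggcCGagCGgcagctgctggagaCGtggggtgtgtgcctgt
CNTN4: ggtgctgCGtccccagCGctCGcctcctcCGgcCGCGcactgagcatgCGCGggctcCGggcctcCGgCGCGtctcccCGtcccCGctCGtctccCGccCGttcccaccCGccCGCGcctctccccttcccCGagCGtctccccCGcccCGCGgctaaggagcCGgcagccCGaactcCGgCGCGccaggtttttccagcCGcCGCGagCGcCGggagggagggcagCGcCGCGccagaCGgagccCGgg
SYN1: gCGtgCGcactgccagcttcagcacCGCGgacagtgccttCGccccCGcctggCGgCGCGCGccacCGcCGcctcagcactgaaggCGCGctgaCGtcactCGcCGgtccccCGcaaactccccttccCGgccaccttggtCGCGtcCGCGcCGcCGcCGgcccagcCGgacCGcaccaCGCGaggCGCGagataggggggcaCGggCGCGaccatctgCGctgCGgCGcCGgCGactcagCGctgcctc

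The bases of CTNND2 are chr5:11904447-11904696, those of PTPRD chr9:10613003-10613252, those of CNTN4 chr3:2098616-2098865 and those of SYN1 chrX:47619858-47620107. CTNND2 lies on the minus strand with a start at chr5:11904446 and 25 CG dinucleotides in these bases, and PTPRD on the minus strand with a start at chr9:10613002 and 32. CNTN4 lies on the plus strand with a start at chr3:2098866 and 40, and its nearest peak was chr3:2098519-2098807, at a fold of 2.38 and an FDR of 0.437. SYN1 lies on the minus strand of chromosome X with a start at 47619857. Among member starts, the median number of CG dinucleotides was 13.5 where a peak lay within 500 bp and 7 where none did, and among all starts 19 and 14. With at least 20 CG dinucleotides, 5 of 16 member starts had a peak (31.3%), and with fewer, 7 of 35 (20.0%). Over all starts the shares were 44.7% and 34.0%. H3K36me2 regions lay within 2 kb of 1 start in sh1, 2 in sh4 and 5 in NC. These were 1.96%, 3.92% and 9.80% of member starts. Of all 22132 starts it was 402, 397 and 663, or 1.82%, 1.79% and 2.996%. The NC starts were neighbouring starts of GRIA1 (chr5:153490670 and chr5:153492172), neighbouring starts of NTM (chr11:131909924 and chr11:131911336) and a start of NRXN3. The NC share thus rests on these few genes and counts neighbouring starts separately. No count per gene was made for these regions.

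A wider list of 58 other genes of the same families, shorter on the whole, was covered over 2.68% in sh1, 3.01% in sh4 and 2.89% in NC, with a region in 19, 19 and 22 of them. The 2-fold rule gave 11 lower and 7 higher in sh1, and 8 lower and 8 higher in sh4. MAGI1, a scaffold, was covered over 17.0% in sh1, 6.89% in sh4 and 6.71% in NC. PCDH19, a protocadherin, was covered over 3.71% in sh1, 14.8% in sh4 and 1.69% in NC, and PCDH7 over 5.44% in sh1, 2.35% in sh4 and 16.5% in NC. SYT11 was covered over 14.8% in sh1 and held no region in sh4 or NC. CADM1, an adhesion gene, was covered over 7.22% in sh1, 6.98% in sh4 and 4.83% in NC. CNTN3 was covered over 5.00% in sh1, 9.54% in sh4 and 4.15% in NC. PCDH10 was covered over 7.08% in sh4 and LRP1 over 5.89% in NC, each with no region in the other libraries. Such genes with high coverage in 1 library were found for each of the 3 libraries.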

How the data were processed

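ChIP-seq peak lists of 4 libraries were used; the matching 4 input libraries were not analysed here. Per the submitters' processing notes, Bowtie 1.1.2, MACS2 and SICER are named, as are the builds hg38 and GRCh38; which step each served is not given in the sources used here. In the deposited H3K36me2 lists the fold is a linear ratio of immunoprecipitate to input, the p-value and FDR are those of the authors' caller (all FDR under 1e-05), and the score was made by the authors and was not used. In the deposited KDM2A list the fold is a ratio, the pileup is a signal in fragments, and p-values and FDR are the authors' too. Regions lie on a 200 bp grid. Read counts were recovered from the deposited fold and p-value and were whole for 100% of the regions where they could be recovered (19497 of 19500 in sh1, 21487 of 21493 in sh4 and 19686 of 19691 in NC; tolerance 0.001 reads for immunoprecipitate, 0.01 for input). Depth of KDM2A and library totals are unknown.

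Gene bodies came from RefSeq GRCh38.p14, whose promoter table matched 23 of 31 members and gives strand and start; LRP1B, CADM2, CSMD1, CSMD3, GRID1, NRXN2, SNAP25 and GRIK1 are without an entry. A further 153 protein-coding genes on other sequences were left out. Regions were clipped to the body and KDM2A peaks placed by midpoint. Named genes are those with a region in all 3 libraries or in none, shared stretches, highest coverage, widest regions, highest and lowest KDM2A density, and KDM2A peaks at starts or of FDR under 0.05. Intervals are exact Poisson or binomial and cover counting error only. Members and lists were chosen with earlier results of these data known. Scripts were tested on simulated data. Python 3.11.15, numpy 2.4.6, pandas 2.3.3, scipy 1.17.1 and matplotlib 3.10.9 were used.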

Additional observations from a re-analysis of the deposited data

How the results depend on the processing

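The ratio of covered length to NC ranged from 0.975 to 1.09 for sh1, on both sides of 1, and from 1.08 to 1.42 for sh4 over the alternatives. The share of regions in the section at the gene start moved by less than its counting interval. At 1.5-fold, 9 genes were lower and 6 higher in sh1, and 10 were lower and 9 higher in sh4. At any difference, 14 were lower and 13 higher in sh1, and 14 were lower and 14 higher in sh4. With only regions above the NC median fold of 1.59, 4 were lower and 8 higher in sh1, and 7 were lower and 10 higher in sh4. That limit kept a larger share of the hairpin lists than of the NC list. Shares over all genes were not counted at these settings, so these counts have no background. With the fold limit the shared length fell to 4.66% for sh1 with NC, 3.12% for sh4 with NC and 4.16% for sh1 with sh4. The regions touching another library numbered 12, 11 and 8 with the fold limit and 59, 57 and 48 within 5 kb. With an overlap of at least 50% of the shorter region, sh4 and NC shared 16. The KDM2A ratio of members to other long genes was 0.670 (0.533 to 0.832) with FDR under 0.05 and 0.896 (0.811 to 0.988) with the 10% of peaks of highest fold. With those 10% the ratio inside over outside turned to 0.617 for sh4 and 0.891 for NC. The cause was not tested. The comparison of KDM2A within each gene was chosen after seeing the data. No paired analysis was possible because each group holds 1 library. Regions of few reads limit the precision of any one gene.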
